A study of Mus musculus with 24 samples.

Results

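The 10 genes described here make or spend nicotinamide adenine dinucleotide (NAD) in mouse liver, or clear its precursor nicotinamide. They are the synthesis enzymes Nampt, Nmnat1, Nmnat3, Naprt, Nadsyn1 and Nmrk1, the NAD consumers Sirt1, Sirt3 and Cd38, and Nnmt, which removes nicotinamide. They were taken as the gene rows whose Ensembl ID carries one of these symbols in the authors' deposited comparison tables. All 10 were found among 56941 genes in the count table, of which 33118 had a count in at least 1 library, and all 10 passed the filter on low counts that left 20514 genes for testing. Polyadenylated RNA of whole liver was sequenced in 24 libraries, 3 for each of 8 groups, at circadian time CT2 (early subjective day) and CT14 (early subjective night). Global Bmal1 knockout mice (KO, Bmal1-/-) were compared with wild-type mice (WT, Bmal1+/+) bred from heterozygous parents of C57BL/6J background. Mice with liver-specific deletion (LKO) carried the Alb-Cre transgene and floxed Bmal1 alleles, and their controls (F) carried the floxed alleles without Cre, so that both groups share the floxed alleles and the controls lack the transgene. Alb-Cre is driven by the albumin promoter and acts chiefly in hepatocytes, so other liver cells of LKO mice keep the gene. Age, sex and feeding are not given in the labels used here, nor is it said whether the 3 replicates of a group were separate animals. Should they come from shared animals, p-values cover only the spread between these samples, which may be technical.

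NAD is built in liver from several starting materials. NAMPT turns nicotinamide into nicotinamide mononucleotide (NMN), the rate-limiting step of the salvage route, NMRK1 makes NMN from nicotinamide riboside, and the NMNAT enzymes join NMN to ATP to give NAD. NAPRT and NADSYN1 carry the Preiss-Handler route from nicotinic acid, and sirtuins and CD38 break NAD down and release nicotinamide, which NNMT can methylate so that it leaves the cycle. Nampt is known in mouse liver as a clock output: BMAL1 and its partner CLOCK bind E-box sequences at the gene, and the SIRT1 deacetylase uses the resulting NAD to act back on the clock.

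The gene start regions of 3 members are shown because E-boxes are the letters that the BMAL1 and CLOCK pair is known to bind. Each window runs from 250 bases before to 50 bases after a RefSeq transcript start, in the gene's own direction, on build GRCm38.p6, while the deposited tables were made on GRCm39. Capitals mark the E-box CACGTG.
Sirt1 (chr10:63338986-63339285, minus strand): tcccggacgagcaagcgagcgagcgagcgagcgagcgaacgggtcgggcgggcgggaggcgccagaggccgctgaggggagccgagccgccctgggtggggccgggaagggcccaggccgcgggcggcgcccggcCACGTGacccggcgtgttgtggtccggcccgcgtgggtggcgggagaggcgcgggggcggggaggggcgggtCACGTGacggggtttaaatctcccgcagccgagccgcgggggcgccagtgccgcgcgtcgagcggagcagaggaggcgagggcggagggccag
Nampt (chr12:32820085-32820384, plus strand): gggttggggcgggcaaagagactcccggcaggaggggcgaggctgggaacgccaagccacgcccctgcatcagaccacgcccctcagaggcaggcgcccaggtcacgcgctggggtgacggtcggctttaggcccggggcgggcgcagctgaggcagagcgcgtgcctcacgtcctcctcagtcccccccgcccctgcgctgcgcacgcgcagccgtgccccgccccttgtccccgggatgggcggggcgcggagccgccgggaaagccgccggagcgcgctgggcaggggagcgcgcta
Nmrk1 (chr19:18631766-18632065, plus strand): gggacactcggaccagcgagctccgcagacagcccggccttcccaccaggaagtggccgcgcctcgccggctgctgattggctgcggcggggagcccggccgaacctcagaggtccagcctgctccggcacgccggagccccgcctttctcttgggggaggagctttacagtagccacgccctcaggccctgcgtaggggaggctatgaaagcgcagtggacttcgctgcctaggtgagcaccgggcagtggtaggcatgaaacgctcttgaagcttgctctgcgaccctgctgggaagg

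Of the 10 members, 8 had such a window (10 windows in all), and Naprt and Nnmt were not matched. Only the Sirt1 window held an E-box, at positions -115 to -110 and again at -43 to -38 from the start. Among all 32851 windows of this kind, 7.15% held CACGTG and 0.594% held 2 or more. Neither the Nampt nor the Nmrk1 window, the genes with the widest time differences below, held CACGTG. None of the 10 windows held the E-prime box CACGTT (in 4.68% of all windows), the D-box TTANGTAA or TTACNTAA (2.32%) or the RORE core TAGGTCA (2.61%), each searched on both strands. These are matches of letters within 300 bases, and they say nothing of elements elsewhere in the genes.

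The libraries held between 88995259 and 131544733 estimated counts. Bmal1 itself, read over the whole gene, stood at 30.7 to 33.8 CPM in WT and 26.6 to 29.8 CPM in F at CT2, against 7.15 to 7.57 in KO and 6.57 to 7.91 in LKO (CPM, counts scaled to the library total with TMM factors). At CT14 the level in WT (2.93 to 8.16 CPM) overlapped that in KO (6.66 to 7.53), so Bmal1 is a check of the labels at CT2 only. Dbp, a clock output gene, rose from 0.506 ± 0.296 CPM at CT2 to 29.4 ± 8.25 at CT14 in WT (mean ± SD, n = 3) and stood at 2.70 ± 1.10 and 2.25 ± 1.26 in KO. All 6 hepatocyte markers were present in every library, and at CT14 their summed level did not overlap between knockouts and controls: it was 85000 to 100000 CPM in WT and 50300 to 70000 in KO, and 84900 to 127000 in F and 52100 to 63700 in LKO. At CT2, where KO and WT overlapped and LKO and F did not, it was 75400 to 109000 in WT, 46500 to 80100 in KO, 88600 to 95500 in F and 54600 to 75100 in LKO. The sum covers these 6 genes only. In bulk liver, lower expression of the marker genes themselves, fewer cells of a type and less RNA per cell cannot be told apart. Replicate 3 of F and replicate 3 of LKO at CT2 stood apart, with 1.37% and 1.82% of counts from mitochondrial genes against 2.11% to 4.92% in the others, and the F library also carried pancreatic acinar transcripts (1990 CPM summed over 7 markers, against at most 567 elsewhere). The 5 spermatid markers summed to 3.71 to 17 CPM in all 12 F and LKO libraries and to 3.72 and 4.28 CPM in 2 KO libraries, against at most 0.407 in the other KO libraries and in WT, and their part in the differences between these lines was not tested.

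Per transcript length, Nnmt, Sirt3 and Naprt were the most abundant members, with medians over the 24 libraries of 147, 116 and 87.3 TPM (the authors' length-corrected values). Nampt followed at 15.2 TPM, Nadsyn1 at 13.4, Nmnat1 at 10.3 and Nmrk1 at 9.05. Cd38, Nmnat3 and Sirt1 were lowest, at 5.84, 5.18 and 2.25 TPM. The members also varied by very different amounts: between its lowest and highest library Nnmt spanned 21.4-fold, Nampt 16.2-fold and Nmrk1 8.53-fold in CPM, whereas Sirt3 spanned 1.60-fold, Nadsyn1 1.81-fold and Nmnat1 1.99-fold.

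**Figure D1:**
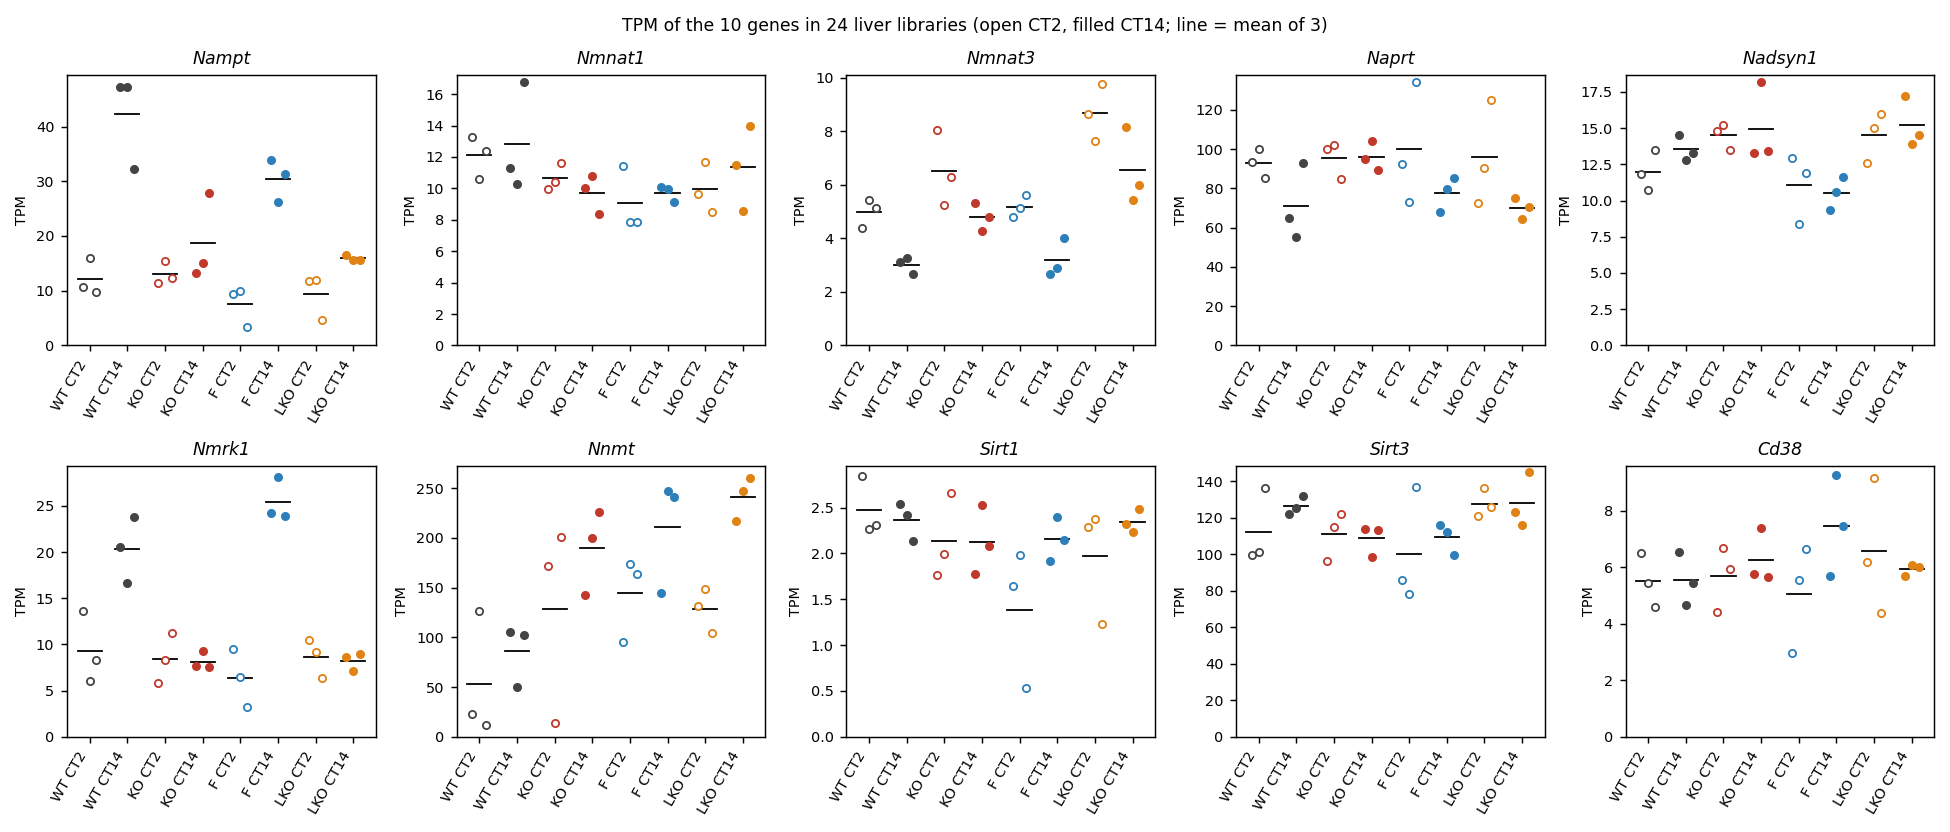
TPM of each of the 10 genes (vertical axis, from 0, scaled per gene) in the 8 groups, with CT2 libraries as open points, CT14 libraries as filled points and a line at the mean of 3. Nampt and Nmrk1 sit high at CT14 in WT and F and low at CT14 in KO and LKO, and Nnmt spreads widely within the WT and KO groups at CT2.

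Nampt, the rate-limiting salvage enzyme, stood higher in every control library at CT14 than in any control library at CT2, and in both knockouts every CT14 library stayed below the controls of that time. WT livers had 30.2, 42.0 and 25.0 CPM (CT2) and 131, 148 and 91.0 CPM (CT14). KO livers had 32.2, 35.1 and 27.9 CPM (CT2) and 33.4, 35.6 and 69.0 CPM (CT14). All WT libraries at CT14 therefore lay above all KO libraries of either time, while at CT2 the WT and KO ranges overlapped. F livers had 25.2, 28.7 and 9.17 CPM (CT2) and 105, 72.5 and 85.0 CPM (CT14). LKO livers had 28.5, 25.7 and 12.9 CPM (CT2) and 38.4, 38.7 and 35.8 CPM (CT14). The F and LKO ranges at CT14 did not overlap. In LKO every CT14 library lay above every CT2 library, although the test given below did not call this difference.

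From CT2 to CT14, Nampt rose by 1.93 ± 0.37 on the log2 scale in WT (± SE, 3.81-fold, adjusted p = 0.00412) and by 2.05 ± 0.37 in F (4.15-fold, adjusted p = 0.00365), by edgeR's quasi-likelihood test with Benjamini-Hochberg adjustment over all genes tested. Both calls held when any of the 24 libraries was left out. The lowest values in F and LKO, 9.17 and 12.9 CPM, came from the CT2 libraries that stood apart, and without both of them the time difference was 1.70 in F and 0.46 in LKO. In KO the difference was 0.54 ± 0.36 (95% interval -0.22 to 1.29, unadjusted p = 0.148, adjusted p = 1). In LKO it was 0.75 ± 0.36 (-0.01 to 1.51, unadjusted p = 0.0484, adjusted p = 0.41), and neither passed the test after adjustment. Without the third KO library at CT14, which holds the highest KO level of Nampt and the highest cholangiocyte marker sum of all libraries (266 CPM, next 176), the KO difference was 0.12. The time differences were smaller in the knockouts than in their controls by 1.39 ± 0.50 (KO against WT, unadjusted p = 0.0118, adjusted p = 0.304) and by 1.3 ± 0.50 (LKO against F, unadjusted p = 0.0175, adjusted p = 0.611), so these differences of differences did not pass over all genes.

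At CT14, Nampt was lower in KO than in WT by 1.42 ± 0.36 on the log2 scale (2.68-fold, edgeR adjusted p = 0.0219) and differed between LKO and F by -1.21 ± 0.36 (95% interval -1.98 to -0.45, adjusted p = 0.106), which did not pass. In the authors' deposited tables both differences of Nampt passed, at -1.42 for KO (adjusted p = 5.04e-05) and -1.21 for LKO (adjusted p = 3.58e-13). The KO call was lost when the first or the second library of WT or of KO at CT14 was left out (adjusted p up to 0.112), and with limma on log2(TPM + 0.1) (adjusted p = 0.0559). That limma setting without a filter, and edgeR without the 2 KO libraries with spermatid transcripts, lost it as well (adjusted p up to 0.125). The LKO difference did pass without the third F library at CT2 (-1.22, adjusted p = 0.0251), although that library is not in the comparison and only adds to the estimate of the spread. At CT2 the differences were -0.03 ± 0.35 for KO and 0.09 ± 0.36 for LKO. The hepatocyte marker sums given above were lower in both knockouts at CT14, and their part in the CT14 differences was not tested.

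Nmrk1, the nicotinamide riboside kinase, was likewise high at CT14 in the controls and low in both knockouts. WT livers had 15.2, 6.98 and 8.61 CPM (CT2) and 24.3, 20.8 and 27.4 CPM (CT14). KO livers had 7.01, 7.88 and 10.7 CPM (CT2) and 7.85, 8.36 and 7.88 CPM (CT14). The 3 WT libraries at CT14 stood above every KO library, and the KO libraries overlapped between times. F livers had 10, 7.64 and 3.60 CPM (CT2) and 30.5, 30.8 and 26.2 CPM (CT14). LKO livers had 10.4, 8.43 and 7.21 CPM (CT2) and 8.30, 7.11 and 8.68 CPM (CT14). Every F library at CT14 held at least 26.2 CPM of Nmrk1, and no LKO library held more than 10.4.

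Nmrk1 rose from CT2 to CT14 by 1.23 ± 0.29 in WT (2.35-fold, edgeR adjusted p = 0.0235) and by 2.04 ± 0.30 in F (4.12-fold, adjusted p = 5.20e-04). The WT call was lost without the second or the third library at CT2 or the first or the third at CT14 (adjusted p up to 0.149), and with limma on log2(TPM + 0.1) (adjusted p = 0.0588). The corresponding differences were -0.09 ± 0.29 in KO (95% interval -0.70 to 0.53) and -0.11 ± 0.29 in LKO (-0.73 to 0.50). At CT14, Nmrk1 was lower in KO than in WT by 1.59 ± 0.30 (3.01-fold, adjusted p = 0.00203) and lower in LKO than in F by 1.86 ± 0.30 (3.63-fold, adjusted p = 0.00105), and neither call was lost in any of the 24 fits without 1 library. At CT2 neither knockout differed by the test (KO -0.27 ± 0.29, LKO 0.30 ± 0.29). The hepatocyte marker sums were lower in both knockouts at CT14, and in LKO at CT2 as well, and their part in the Nmrk1 differences was not tested. As the mean of both times Nmrk1 was lower by 0.93 ± 0.21 in KO (adjusted p = 0.00897) and by 0.78 ± 0.21 in LKO (adjusted p = 0.039). On the deposited TPM values these means were no longer called (adjusted p = 0.0531 to 0.107 for KO), and the LKO mean was also lost without the first WT library at CT14, the first or second F library at CT2, the second or the third LKO library at CT2, or any F or LKO library at CT14 (adjusted p up to 0.135). The authors' deposited table of all LKO against all F libraries is not the mean of both times. There Nmrk1 differed by -1.11 and did not pass (adjusted p = 0.145).

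Nmrk1 was the only member whose time difference itself differed between genotypes by the test: it was smaller in LKO than in F by 2.16 ± 0.41 (edgeR adjusted p = 0.0382, a comparison in which 0.112% of all genes were called). It was lost in 15 of the 24 fits without 1 library (adjusted p up to 0.157): those without the first or the third WT library at CT14, the second KO library at CT2, the second F library at CT2, the first or second LKO library at CT2, or any KO, F or LKO library at CT14. Without the CT2 libraries that stood apart it was -1.97 (adjusted p = 0.0214). Between KO and WT the difference was -1.32 ± 0.41 (unadjusted p = 0.00419, adjusted p = 0.192), in a comparison with 0.799% of genes called, and no member passed. The time effects of LKO and KO differed by -0.03 ± 0.41 for Nmrk1 (95% interval -0.89 to 0.84) and by 0.21 ± 0.50 for Nampt (-0.85 to 1.28), and no member passed where 0.0341% of all genes did.

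**Figure D2:**
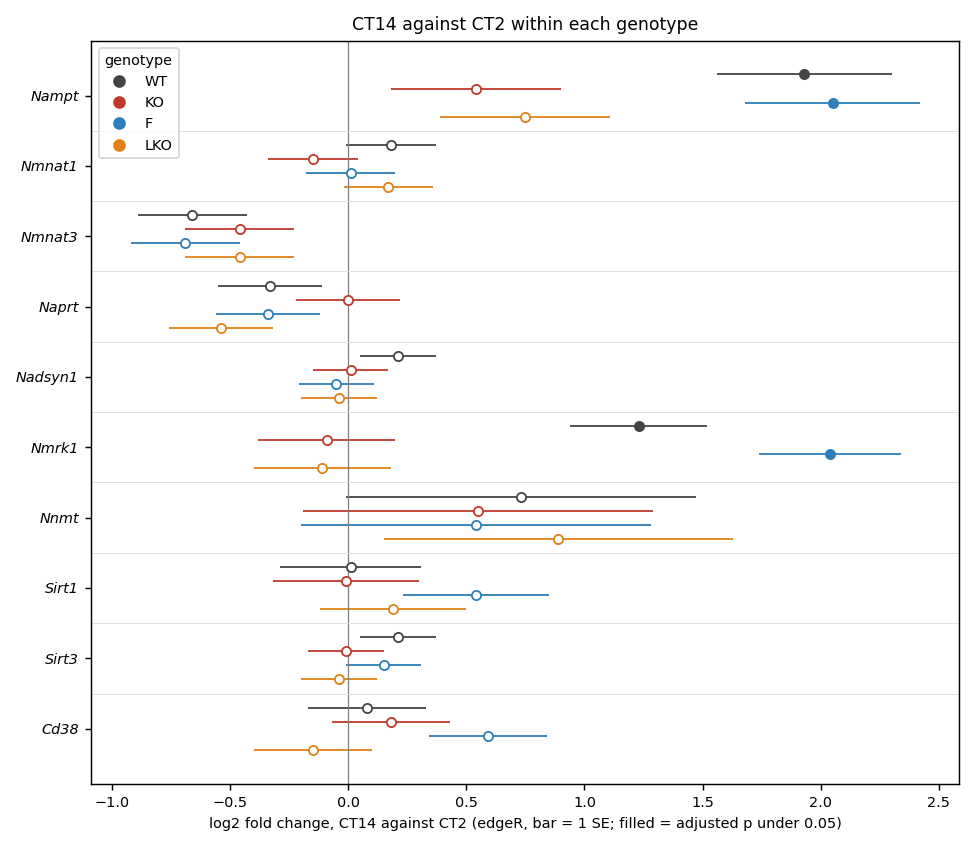
Log2 fold change from CT2 to CT14 (horizontal axis) of each of the 10 genes in WT, KO, F and LKO, with bars of 1 SE and filled points for adjusted p under 0.05. The only filled points are Nampt (1.93 and 2.05) and Nmrk1 (1.23 and 2.04) in WT and F.

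The NMNAT enzymes, which carry out the last step to NAD, were called by edgeR once between them. Nmnat3, the mitochondrial enzyme, had 5.99, 7.33 and 6.47 CPM (CT2) and 4.13, 4.76 and 3.66 CPM (CT14) in WT, and 6.01, 7.16 and 7.21 CPM (CT2) and 3.88, 3.69 and 5.03 CPM (CT14) in F. In both controls the CT14 libraries lay below the CT2 libraries without overlap, opposite to Nampt, but the differences of -0.66 ± 0.23 in WT and -0.69 ± 0.23 in F did not pass (edgeR adjusted p = 0.166 and 0.116). For every member, those above included, groups of 3 libraries can separate by chance, so a lack of overlap alone is no evidence of a difference. LKO livers had 10, 8.03 and 12.3 CPM of Nmnat3 at CT2 and 8.95, 6.47 and 6.60 CPM at CT14, above F at each time without overlap. Nmnat3 was higher in LKO than in F by 0.69 ± 0.16 as the mean of both times (1.61-fold, adjusted p = 0.0183). The call was lost without the second F library at CT14, the third LKO library at CT2 or the first LKO library at CT14 (adjusted p up to 0.0674). In the authors' deposited table of all LKO against all F libraries, which is not the mean of both times, the adjusted p was 0.111. The authors' deposited tables called Nmnat3 higher in LKO than in F at CT14 by 0.81 (adjusted p = 0.00324), and lower at CT14 than at CT2 in WT (-0.66, adjusted p = 0.0246) but not in F (-0.72, adjusted p = 0.202). KO livers had 10.8, 5.68 and 6.89 CPM (CT2) and 6.35, 4.84 and 5.80 CPM (CT14), a mean difference from WT of 0.34 ± 0.16 that did not pass (adjusted p = 0.268).

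Nmnat1, the nuclear enzyme, ranged from 8.47 to 16.8 CPM over all libraries and was called by edgeR in no comparison. At CT14 it had 12.4, 14.2 and 16.8 CPM in WT and 10.2, 11 and 8.47 CPM in KO, ranges that did not overlap. The mean difference of KO from WT over both times was -0.38 ± 0.13 (edgeR adjusted p = 0.101), and it was under the threshold with DESeq2 (adjusted p = 0.0495). Nmnat1 also passed in the authors' deposited table of all KO against all WT libraries (adjusted p = 0.04). In LKO the CT14 levels of Nmnat1 (10.9, 9.97 and 12.9 CPM) overlapped those of F (12.9, 11 and 9.68 CPM).

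Neither enzyme of the Preiss-Handler route was called by edgeR in any comparison. Naprt, which starts the route from nicotinic acid, averaged 108 ± 12.8 CPM at CT2 and 86.4 ± 20.5 at CT14 in WT (SD, n = 3), and 102 ± 19.0 and 102 ± 5.58 in KO. F averaged 118 ± 33.3 and 92.8 ± 4.18 CPM, and LKO 102 ± 37.6 and 70.5 ± 2.92, with the LKO libraries at CT14 below all F libraries of that time. In the authors' deposited table that difference of Naprt at CT14 was -0.39 and passed (adjusted p = 0.00434). The highest values of Naprt, 155 and 145 CPM, came from the third F and the third LKO library at CT2, which stood apart. Nadsyn1, the glutamine-dependent NAD synthetase that ends the route, stayed between 13.9 and 25.1 CPM in all libraries, and its largest knockout difference was 0.25 ± 0.16 at CT14 (LKO against F).

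Sirt1, the nuclear NAD-dependent deacetylase, was the least abundant member and had 2 E-boxes in its window, and no time difference was called. WT livers had 6.87, 5.34 and 5.08 CPM (CT2) and 6.07, 6.10 and 5.26 CPM (CT14), a difference of 0.01 ± 0.30. At CT14 the KO libraries (4, 5.09 and 4.58 CPM) lay below the WT libraries and the LKO libraries (4.73, 4.55 and 4.89 CPM) below the F libraries (5.25, 5.36 and 5.06 CPM), with differences of -0.35 ± 0.31 and -0.14 ± 0.31 that did not pass. In F at CT2 the values were 3.92, 5.44 and 1.43 CPM, and the lowest came from the library that stood apart: the time difference of 0.54 ± 0.31 in F was 0.16 without it.

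Sirt3, the mitochondrial deacetylase, was the steadiest member, between 61.8 and 98.8 CPM in all libraries. At CT14 it had 92.6, 98.1 and 98.8 CPM in WT and 81.9, 64.2 and 72.9 CPM in KO, without overlap, and the difference of -0.40 ± 0.16 did not pass (edgeR adjusted p = 0.162). LKO and F overlapped at that time, at 76.2 to 89.1 and 72.7 to 93.3 CPM. The mean KO effect on Sirt3 differed from the mean LKO effect by -0.41 ± 0.16 (unadjusted p = 0.0158, adjusted p = 0.424).

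Cd38, an NAD-cleaving enzyme known from immune cells, ranged from 5.37 to 18 CPM and was called by edgeR in no comparison. F livers had 5.37, 11.5 and 12.9 CPM (CT2) and 12.9, 18 and 14 CPM (CT14), and LKO livers had 10.5, 15 and 8.59 CPM (CT2) and 9.72, 11 and 10.1 CPM (CT14). The LKO libraries at CT14 lay below the F libraries (-0.54 ± 0.25, edgeR adjusted p = 0.447). In the authors' deposited table the same difference of Cd38 passed (-0.54, adjusted p = 0.019). The highest Cd38 value was in the second F library at CT14, which also had the highest neutrophil marker sum (43.5 CPM over 5 markers). Lymphocyte markers summed to 1.71 to 7.19 CPM and Kupffer cell and macrophage markers to 345 to 1060 CPM over all libraries, and their part in the Cd38 levels was not tested.

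Nnmt, which methylates nicotinamide with a methyl group from S-adenosylmethionine, varied widely among replicates. WT livers had 15, 79.7 and 7.16 CPM (CT2) and 66.5, 36.4 and 65.6 CPM (CT14), and KO livers had 113, 7.39 and 108 CPM (CT2) and 88.4, 111 and 134 CPM (CT14). F livers had 59.4, 117 and 102 CPM (CT2) and 103, 153 and 149 CPM (CT14), and LKO livers had 72.4, 77.1 and 65.1 CPM (CT2) and 116, 142 and 139 CPM (CT14). KO lay above WT at CT14 without overlap, and in LKO the CT14 libraries lay above the CT2 libraries. None of the 15 comparisons called Nnmt by edgeR. The KO effect was 1.07 ± 0.53 as the mean of both times (95% interval -0.05 to 2.19, adjusted p = 0.303), and the LKO effect was -0.20 ± 0.52 (-1.31 to 0.90, adjusted p = 0.969).

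The mean Nnmt differences of KO and of F from WT depended on the second WT library at CT2. This was the highest WT library of that time (79.7 CPM). Without it, Nnmt was higher in KO than in WT by 1.88 (edgeR adjusted p = 0.0267), and higher in F than in WT by 2.16 (adjusted p = 0.0338) against 1.36 ± 0.53 with it (adjusted p = 0.226). The second KO library at CT2 also stood far from its group, at 7.39 CPM beside 113 and 108. In the authors' deposited tables, which compare pairs of groups, Nnmt was higher in KO than in WT at CT14 by 0.98 (adjusted p = 0.00321) and at CT14 than at CT2 in LKO by 0.88 (adjusted p = 6.98e-04). The 4 adipocyte markers, of which 1 passed the filter on low counts, summed to 0 to 0.516 CPM in these libraries.

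**Figure D3:**
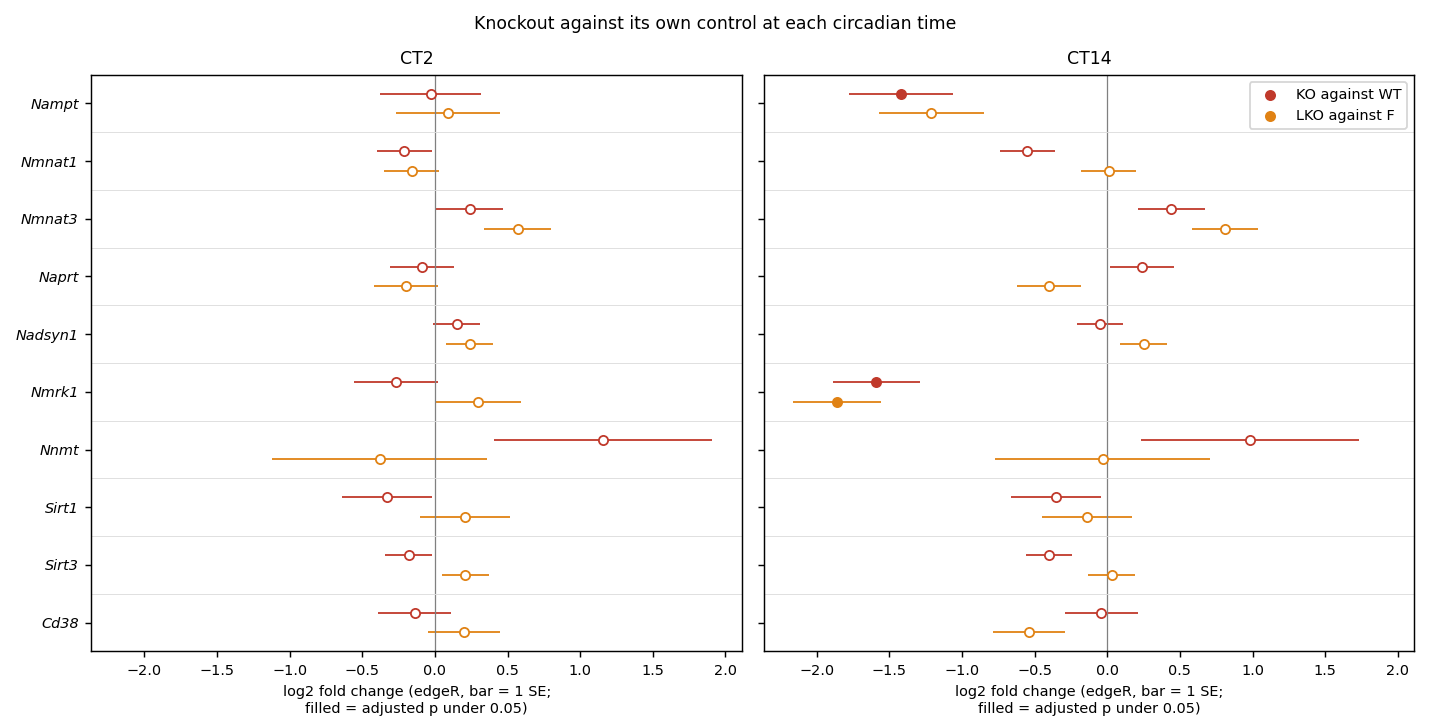
Log2 fold change of KO against WT and of LKO against F (horizontal axis) for each of the 10 genes at CT2 and at CT14, with bars of 1 SE and filled points for adjusted p under 0.05. At CT2 no point is filled, and at CT14 Nampt (-1.42 in KO) and Nmrk1 (-1.59 in KO, -1.86 in LKO) are.

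Counted over the family, KO against WT called 2 of 10 members at CT14, Nampt and Nmrk1, both lower, where 5.31% of all genes were called. At CT2 the count was 0 (0.517% of all genes), and as the mean of both times it was 1 (5.40%). LKO against F called 1 member at CT14 (1.73% of all genes), 0 at CT2 (0.400%) and 2 as the mean of both times, Nmrk1 lower and Nmnat3 higher (3.13%). The time comparison called 2 members in WT (2.54% of all genes) and 2 in F (2.66%), Nampt and Nmrk1 in each, all higher at CT14. It called 0 members in KO, where edgeR called 0% of all genes and 753 genes had an unadjusted p under 0.05, and 0 in LKO (0.848%). Where edgeR called 0 members, DESeq2 fitted to the same 8 groups also called 0. The authors' deposited DESeq2 table of time in LKO called Nnmt higher at CT14 (0.88, adjusted p = 6.98e-04). Members with an unadjusted edgeR p under 0.05 numbered 0 for KO against WT at CT2 (1845 of 20514 genes) and 1 for LKO against F at CT2 (1822). Such members numbered 0 for time in KO, 2 for time in LKO (2470 genes) and 3 for F against WT (2848). For the time difference in KO minus WT there were 2 (1882 genes), for the KO minus the LKO effect 1 (1666), and for the time effect in LKO minus KO 0 (1840). No member passed where the mean KO effect was set against the mean LKO effect (0.107% of all genes), nor between F and WT (2.54%). The median log2 difference of the 10 members at CT14 was -0.20 for KO against WT and -0.09 for LKO against F, beside 0.01 and -0.01 over all genes tested. The time comparisons in the controls and the knockout comparisons at CT14 share their control libraries, so the WT and F levels at CT14 enter both.

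Over the 24 libraries, Nampt and Nmrk1 had a Pearson correlation of 0.81 in log2 CPM, and each had -0.73 with Nmnat3. Sirt1 had 0.67 with Nampt and 0.60 with Nmrk1, with its lowest value in the F library that stood apart, which was also the lowest for both of those genes. Nnmt was between -0.27 and 0.22 with every other member. These values describe libraries that share genotypes, times and sequencing, and carry no test. The genes most like Nampt among 12744 genes with a mean of at least 1 CPM were Ndel1 (0.93), Dnajb6 (0.91), Dclre1a (0.90), Itch (0.90) and Slc16a12 (0.89). Ndel1 averaged 39.7 ± 4.54 CPM at CT14 in WT and 34.5 ± 4.08 in F, against 20.4 to 27.8 in the other 6 groups. Those most like Nmrk1 were Lonrf1 (0.91), Slc31a1 (0.88), Polr2b (0.88), Elovl6 (0.87) and Arhgap21 (0.86), and Lonrf1 stood at 13.8 ± 2.45 CPM at CT14 in WT and 2.89 ± 0.431 in KO. Among the genes most like Nnmt were Rpl35a (0.78), Ptpmt1 (0.72), Foxred1 (0.70) and Tmem200b (0.70). Rank correlations (Spearman) were lower for these genes, at 0.57, 0.61, 0.26 and 0.53. For the genes named with Nampt they were 0.68 to 0.87, and with Nmrk1 0.53 (Polr2b) to 0.88 (Arhgap21).

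The rest of the NAD network was read from lists of neighbouring genes. The list for tryptophan to NAD had 11 tested genes, side-branch enzymes such as Aadat and Kyat3 among them. As the mean of both times, KO against WT called 1 higher and 2 lower, and LKO against F called 2 higher and 0 lower. Among all genes 5.4% and 3.13% were called there in either direction. The list's medians were -0.18 and -0.12 (0.01 and -0.01 over all genes) and do not describe the route to NAD alone. Kynu, kynureninase, stood at 187 to 215 CPM at CT2 and 108 to 132 at CT14 in WT, and at 203 to 265 and 202 to 250 in KO. It was higher in KO by 0.61 ± 0.14 (edgeR adjusted p = 0.0107) and in LKO by 0.62 ± 0.14 (adjusted p = 0.0127), and it fell from CT2 to CT14 in WT by 0.76 ± 0.19 (adjusted p = 0.0381). In F, at 109 to 154 CPM at CT2 and 82.7 to 145 at CT14, the time difference of Kynu was -0.15 ± 0.19 and did not pass (adjusted p = 0.799). The WT time call was lost in 8 of 24 fits without 1 library, those without each of the 6 WT libraries among them (adjusted p up to 0.179), and the LKO call without the second LKO library at CT14 (adjusted p = 0.0518). Aadat, which diverts kynurenine to kynurenic acid, was higher in LKO by 0.99 ± 0.18 as the mean of both times (adjusted p = 0.00297). It held 84.1 to 137 CPM at CT2 against 29.6 to 62.7 in F, and 86 to 127 at CT14 against 52 to 74.3. At neither time alone did edgeR call Aadat in LKO. Afmid, kynurenine formamidase, was lower in KO by 0.62 ± 0.17 (adjusted p = 0.0335) and at CT14 in LKO by 1.02 ± 0.24 (adjusted p = 0.0283), and Kyat3, a kynurenine aminotransferase, was lower in KO by 0.57 ± 0.15 (adjusted p = 0.0265). The Afmid and Kyat3 calls were lost on the TPM values, with adjusted p between 0.0792 and 0.25.

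Of 7 tested genes for other salvage enzymes and transport, KO called 2 higher and LKO 1 higher as the mean of both times, none lower, where 5.40% and 3.13% of all genes were called in either direction. The list's medians were 0.29 and 0.01, beside 0.01 and -0.01 over all genes. The LKO call, Pnp, did not pass in the authors' deposited table of all LKO against all F libraries (adjusted p = 0.514), which is not the mean of both times. Pnp, which splits nicotinamide riboside as well as purine nucleosides, was higher at CT14 in KO by 1.19 ± 0.20 (edgeR adjusted p = 7.68e-04) and in LKO by 0.88 ± 0.20 (adjusted p = 0.02). Its F libraries held 152 to 166 CPM at CT2 and 70.4 to 82.7 at CT14, a fall of 1.04 ± 0.20 (adjusted p = 0.00563). In WT the time difference of Pnp was -0.59 ± 0.20 and did not pass (adjusted p = 0.14). The LKO call at CT14 and the time call in F were lost for Pnp without the pair of F libraries that carried pancreatic transcripts (adjusted p = 0.0803 and 0.0626). Nt5e, the ectonucleotidase CD73, was higher in KO by 1.3 ± 0.35 (adjusted p = 0.0325), a call lost in 9 of 24 fits without 1 library. Slc25a51, the mitochondrial NAD carrier, was 26.8 to 29.4 CPM at CT2 and 49.4 to 73.6 at CT14 in WT, a rise of 1.04 ± 0.26 (adjusted p = 0.0317). In F the time difference of Slc25a51 was 0.32 ± 0.26 and did not pass (adjusted p = 0.621), and the WT call was lost in all 3 limma settings on TPM (adjusted p up to 0.25).

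Of 12 other sirtuins, PARPs and NAD hydrolases, no knockout comparison called any by edgeR. At CT2, at CT14 and as the mean of both times these comparisons called 0.4% to 5.4% of all genes. The single call was Parp3, lower at CT14 than at CT2 in F by 0.63 ± 0.14 (edgeR adjusted p = 0.0145), where 2.66% of all genes were called. Of 9 NADP and redox shuttle genes, Ldha, lactate dehydrogenase A, was higher in KO at CT14 by 0.91 ± 0.18 (adjusted p = 0.0039), and Got1, a malate-aspartate shuttle aminotransferase, was higher in LKO as the mean of both times by 1.02 ± 0.25 (adjusted p = 0.0284). Among all genes 5.31% and 3.13% were called in those comparisons. Of the 3 other genes of nicotinamide clearance none was called by edgeR in any comparison.

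The methyl donor cycle supplies the S-adenosylmethionine that NNMT spends. Of its 11 genes examined here, KO called 2 higher, Bhmt and Cbs, and LKO 1 higher, Cbs, as the mean of both times, none lower. Among all genes 5.4% and 3.13% were called there in either direction. The list's medians were 0.05 and 0.08, beside 0.01 and -0.01 over all genes. Cbs, cystathionine beta-synthase, which draws homocysteine out of the cycle, fell from CT2 to CT14 by 1.43 ± 0.21 in WT and by 1.48 ± 0.21 in F (edgeR adjusted p = 4.31e-04 and 4.40e-04). At CT14 its levels were 203 to 239 CPM in WT and 763 to 942 in KO, and 240 to 263 in F and 651 to 682 in LKO, differences of 2.0 ± 0.22 (adjusted p = 7.37e-06) and 1.40 ± 0.21 (adjusted p = 7.35e-04). Bhmt, which remethylates homocysteine with betaine, was higher in KO by 1.71 ± 0.32 as the mean of both times (adjusted p = 0.00216). It held 4690 to 7330 CPM at CT2 against 1750 to 2530 in WT, and 4370 to 8160 at CT14 against 1270 to 1590. By edgeR, Bhmt was called at CT14 (adjusted p = 0.0111) and not at CT2. Hepatocyte marker sums were lower at CT14 in the same knockouts in which Cbs was higher, and their part in this difference was not tested. In the authors' deposited table of all LKO against all F libraries, which is not the mean of both times, Cbs did not pass (adjusted p = 0.576).

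**Figure D4:**
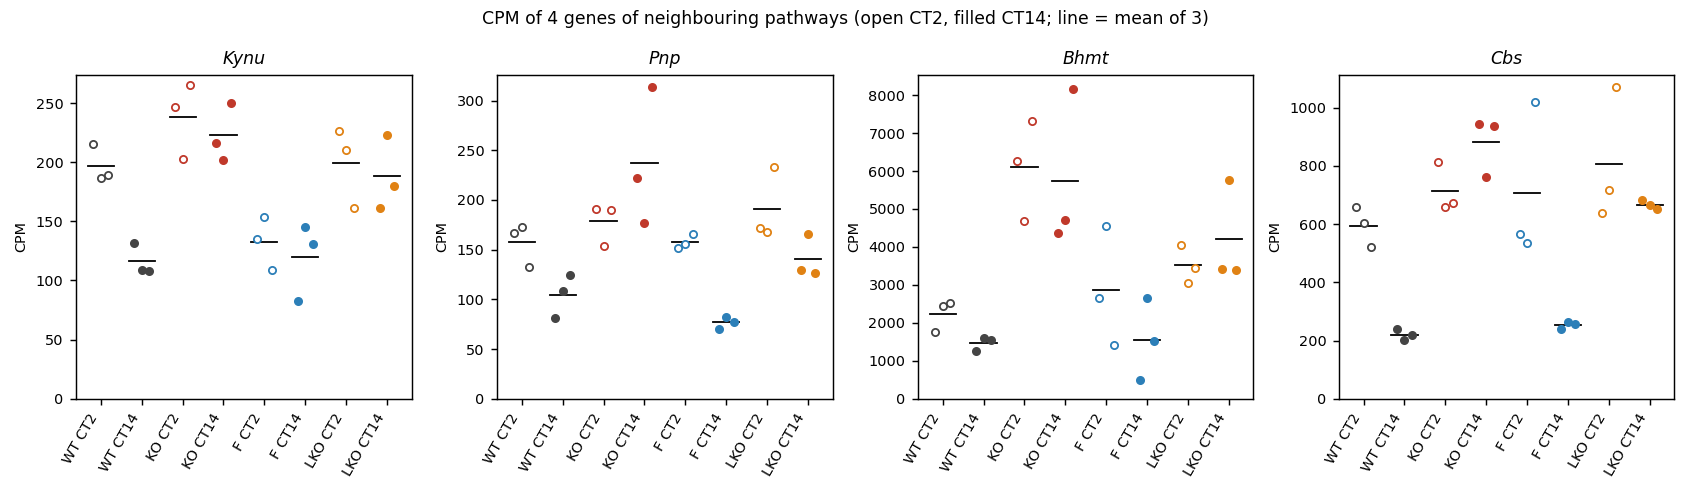
CPM (vertical axis, from 0) of Kynu, Pnp, Bhmt and Cbs in the 8 groups, with CT2 libraries open, CT14 libraries filled and a line at the mean of 3. Cbs at CT14 lies between 203 and 263 CPM in WT and F and between 651 and 942 CPM in KO and LKO.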

How the data were processed

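RNA-seq of polyadenylated liver RNA was analysed from 24 libraries, assigned to 8 groups of 3 from their labels, with 0 columns of per-sample values unused. Estimated counts for each Ensembl gene, without normalization, were deposited by the authors, and these expected counts were rounded to whole numbers, although all were whole already. The authors also deposited TPM values, corrected for transcript length and scaled within each library. The authors' deposited comparison tables give log2 fold changes. These tables also hold the p-values the authors deposited, before and after adjustment. Their tables over both times set all libraries of a genotype against all of its control. Those values are not the mean of both times used here: for Nampt in KO they give -1.00 against -0.73. Per the submitters' processing notes, the tools were fastp (version 0.23.2), HISAT2 (version 2.2.1) and StringTie (version 1.3.1), and the genome build was GRCm39. Which annotation and which strand setting were used is not given in the sources used here, so reads from overlapping or antisense genes cannot be told apart.

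The counts were fitted with edgeR 4.0.16 in R 4.3.3: a filter by filterByExpr with a minimum count of 10 and a minimum total of 15, TMM scaling, a robust quasi-likelihood model with 8 group means over all 24 libraries, and 15 contrasts. Adjusted p-values under 0.05 over the 20514 genes tested counted as calls, and adjusted p-values come from this model unless a different tool is named. Ranges of 3 libraries that do not overlap describe the levels and did not count as calls. How many of all genes separate in this way is not given here, so such separations have no background to be set against. Levels are CPM scaled by TMM, and log2 CPM used a prior count of 2. Standard errors were derived as the size of the log2 fold change over the square root of the test's F statistic. The 95% intervals use these derived standard errors. The intervals leave out the degrees of freedom that the test gains from other genes, so they can be wider than the test implies. Total counts of 88995259 to 131544733 per library set the counting precision, and the estimates are not independent molecules. The fit was tested on simulated data. DESeq2 1.42.0, limma 3.58.1 on log2 TPM (pseudocounts 0.1 and 1), other scalings and filters, a replicate block, libraries left out and the authors' tables were the alternatives.

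The members and the lists of neighbouring genes (tryptophan to NAD, other salvage and transport, other sirtuins, PARPs and NAD hydrolases, NADP and redox shuttle, nicotinamide clearance, methyl donor cycle, clock genes and cell type markers) were chosen with earlier results of these data known. All members are named, with at most 6 called genes per list by smallest p. Ido1, Nmrk2, Slc22a13 and Slc5a8 did not pass the filter. Some genes of the lists and some genes that the likeness measure named are not reported here. Same-numbered libraries of paired groups had correlations of their deviations between -0.15 and 0.31 over 24 pairs. Only 1 of 8 comparisons had all 3 over 0.1, so the numbers were not taken to pair samples. That comparison was LKO against F at CT2 (0.18, 0.14 and 0.31), and the 0.31 is between the replicate 3 libraries that stood apart. Whether those libraries were handled together is not given in the labels used here. Gene start windows came from RefSeq on GRCm38.p6 and were matched by symbol, and no coordinates were moved between builds.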

Additional observations from a re-analysis of the deposited data

Results flagged for a closer look

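In 2 cases a time difference was itself different between a knockout and its control by edgeR's quasi-likelihood test. For Nmrk1 the log2 difference between CT14 and CT2 in LKO minus that in F was -2.16 ± 0.41 (adjusted p = 0.0382). For Cbs the time difference in KO minus that in WT was 1.73 ± 0.30 (adjusted p = 0.00445). In both the control changed between the times by the test and the knockout did not.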

How the results depend on the processing

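Numbers of the 10 members called moved with the processing as follows. For KO against WT as the mean of both times (1 member), DESeq2 called 3, and 2 were called in the authors' deposited tables and without the pair of F libraries with pancreatic transcripts. For KO against WT at CT14 (2 members), limma on log2(TPM + 0.1), with or without a filter, and the fit without the pair of KO libraries with spermatid transcripts each called 1. For LKO against F as the mean of both times (2), the fit to those genotypes alone and the fit without those KO libraries called 1, and 0 were called by the authors. For LKO against F at CT14 (1), scaling by library total alone and all 3 limma settings called 2, DESeq2 called 3, and 5 were called by the authors. The time comparison in WT (2) gave 1 with limma on log2(TPM + 0.1), with or without a filter, and that in LKO (0) gave 1 in the authors' tables. The time difference in LKO minus F (1) gave 0 with scaling by library total alone, all 3 limma settings, the fit to those genotypes alone and the fit without those KO libraries. With both CT2 libraries that stood apart left out, a setting added after seeing the data, the counts were 3 for KO against WT (mean), 3 for LKO against F at CT14, 1 for the time difference in KO minus WT and 1 for F against WT. The cause was not tested.

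Leaving out 1 library gave 1 to 2 members for KO against WT (mean and CT14), 0 to 2 for LKO against F (mean), 1 to 2 for LKO against F at CT14 and for time in WT, and 0 to 1 for the time difference in KO minus WT, in LKO minus F and for F against WT. The other counts did not change in these fits. With the replicate number as a replicate block, all 15 counts stayed as they were, for example 2 for KO against WT at CT14, and among called genes only the Kynu time call in WT was lost (adjusted p = 0.0546).

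No named value changed direction while called. Outside single-library fits, 2560 of the values kept their direction and their side of the threshold, 77 called values lost it, 33 passed it newly and 129 that were not called changed direction. On TPM and on library totals the median of all genes in the knockout comparisons shifted by up to 0.21 and 0.19 on the log2 scale. Among neighbouring genes, calls were lost in fits without 1 library for Afmid (10 of 24 in KO, 5 in LKO at CT14), Kyat3 (6), Slc25a51 (4), Pnp in LKO at CT14 (4), Parp3 (3) and Got1 (6). Sirt1 rests on 153 to 860 counts per library and Nmnat3 on 386 to 1292, and with 3 libraries a group small differences may go undetected at this depth.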
